A study of Mus musculus with 12 samples.

Results

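The genes described here encode the proteasome, its immunoproteasome variant and the factors that assemble or activate them. They are the 50 genes, of 19752 named genes on the array, whose single platform symbol is Psm followed by a letter from a to g and a digit, each read by its brightest probe set. Of the 50, 46 belong to the particle, its activators, its inhibitor or its dedicated assembly chaperones. The other 4 are Psma8 and Psmb11, subunits known from testis and thymus, and Psmc3ip and Psme3ip1, which carry a matching symbol but are not subunits. The immunoproteasome genes Psmb8, Psmb9, Psmb10, Psme1 and Psme2 were set against the other 45.

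The proteasome is a barrel of stacked rings that degrades proteins tagged with ubiquitin. The alpha subunits form the gates, and 3 of the beta subunits cut peptide bonds. A regulatory cap, made of a base with a ring of ATPases and of a lid, binds, unfolds and feeds the substrate. In lymphocytes and in cells exposed to interferon-gamma the cutting subunits Psmb6, Psmb7 and Psmb5 are exchanged for Psmb9, Psmb10 and Psmb8, and the barrel can be capped by PA28, a ring of Psme1 and Psme2. The immunoproteasome is known for producing peptides that MHC class I molecules present, and IL-12 is known as an inducer of interferon-gamma in T cells.

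The cells were splenic CD4+ T cells of male C57BL/6 mice aged 6 weeks, taken by EasySep negative selection and activated for 48 h with CD3/28 beads. All 4 groups shared that activation. After that, 5 arrays hold cells kept for 2 h in IL-12 at 100 U/ml, and 4 arrays hold cells kept in the same dose for 8 h. The untreated group (2 arrays) is labelled as 2 h without the cytokine, and the baseline group is 1 array. No untreated array at 8 h was analysed here, so the 8 h groups differ from the untreated cells by IL-12 and by 6 further hours together. The array titles carry numbers. The IL-12 arrays numbered 2 to 4 (3 at 2 h and 2 at 8 h) and those numbered 5 to 8 (2 at each time, with all untreated and baseline arrays) are called the first and the second number run. The labels do not say what the numbers stand for or whether samples came from separate mice, so the spread behind each p-value is that between these samples and may be technical.

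Values are log2 of the deposited intensity on Mouse Gene 1.0 ST arrays, which fell between 7.518 and 21170 before the log, with array medians of 160.6 to 167.3. The number of arrays limits the precision. A gene is called changed where the adjusted p of the limma test was under 0.05, with Benjamini-Hochberg adjustment over all 19752 genes and a term for the number run in the fit. The mean of the T cell markers lay between 11.96 and 12.22 on every array. All dendritic cell, neutrophil and NK cell markers measured lay below the array median, as did 11 of 13 macrophage markers. In these bulk samples fewer cells of a type and less RNA per cell cannot be told apart. Of the members, 47 of 50 lay above the median level of all genes. Psma8, Psmb11 and Psmg3 lay below it.

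The stretches upstream of 4 catalytic subunit genes that hold a motif match are shown. They are the 250 bases before the annotated start site from RefSeq (GRCm38), in lower case with motif matches in capitals. The window of Psmb10 was searched too, held no match and is not shown. Whether a match goes with the changes below was not tested. Psmb8 lies at chr17:34197945-34198194 (plus strand), and its capitals mark a gamma-activated site, TTCNNNGAA. Psmb9 lies at chr17:34187331-34187580 (minus strand), with a CCAAT box on the opposite strand in capitals. Psmb5 at chr14:54617996-54618245 (minus strand) and Psmb6 at chr11:70525107-70525356 (plus strand) each hold the core of an antioxidant response element, TGACNNNGC.
Psmb8: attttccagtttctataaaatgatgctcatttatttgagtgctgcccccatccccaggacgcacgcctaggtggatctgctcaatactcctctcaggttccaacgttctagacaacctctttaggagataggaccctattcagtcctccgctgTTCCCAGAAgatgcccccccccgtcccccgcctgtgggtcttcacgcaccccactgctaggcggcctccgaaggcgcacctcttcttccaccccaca
Psmb9: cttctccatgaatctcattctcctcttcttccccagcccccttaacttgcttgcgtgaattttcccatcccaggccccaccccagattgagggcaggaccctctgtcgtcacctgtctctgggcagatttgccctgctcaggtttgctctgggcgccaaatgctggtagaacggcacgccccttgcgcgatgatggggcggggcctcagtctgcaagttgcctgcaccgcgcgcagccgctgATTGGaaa
Psmb5: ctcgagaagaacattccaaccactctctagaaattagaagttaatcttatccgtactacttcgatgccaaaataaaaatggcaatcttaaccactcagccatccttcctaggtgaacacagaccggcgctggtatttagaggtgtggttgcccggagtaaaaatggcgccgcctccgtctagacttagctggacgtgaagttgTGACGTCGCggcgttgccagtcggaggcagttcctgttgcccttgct
Psmb6: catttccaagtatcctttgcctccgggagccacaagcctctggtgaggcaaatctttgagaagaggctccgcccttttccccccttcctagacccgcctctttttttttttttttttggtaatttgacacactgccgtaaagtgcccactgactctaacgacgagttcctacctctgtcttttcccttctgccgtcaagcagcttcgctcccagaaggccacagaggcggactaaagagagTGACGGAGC
The search covered both strands of the 42 members with a window in the table, and matches of different motifs could overlap. TTCNNNGAA was found for 2 of 42 members, Psmb8 and Psmg1, against 8.13% of all 27025 genes with a window of that length. A pair of interferon regulatory factor half-sites was found for 3 of 42 (Psmb3, Psmd4 and Psmd9) against 3.46% of those genes. TGACNNNGC was found for 5 of 42 (Psmb5, Psmb6, Psmc6, Psmd12 and Psmd9) against 11.5%, and CCAAT for 16 of 42 against 37.5%. A match is a description of these letters, and its absence from this window says nothing of the factor.

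No proteasome gene passed the test after 2 h of IL-12. The first comparison asks what IL-12 changes at a matched time. None of the 50 members was called between IL-12 2 h and untreated 2 h, where limma called 0.0709% of all genes (14 genes, all higher), and 1 member passed an unadjusted p under 0.05. Of all 19752 genes 539 were higher and 432 lower at that unadjusted threshold. The median change of the members was -0.04 on the log2 scale against 0 over all genes, and the 5 immunoproteasome genes ran from -0.09 to 0.06. In the same comparison Ifng itself rose by 1.94 ± 0.20 (SE, limma adjusted p = 0.0025). Among the arrays of the second run alone, which include all untreated ones, it rose by 1.68.

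The member with the smallest p was Psmb1, a structural beta subunit. Its log2 intensity was 10.53 and 10.84 in the untreated arrays. It was 10.80, 10.59 and 10.73 in IL-12 2 h arrays 2, 3 and 4, and 10.26 and 10.45 in arrays 5 and 6. Over both runs the groups overlapped, while in the second run, which holds the untreated arrays, both IL-12 values were below both untreated ones. The fitted difference was -0.29 ± 0.11 (SE, limma adjusted p = 0.907). Psma3, an alpha subunit, read 11.95 and 11.89 untreated, 11.61, 11.73 and 11.62 in the first run at 2 h, and 11.69 and 11.83 in the second. All 5 IL-12 values were below both untreated ones, with a difference of -0.17 ± 0.09 (limma adjusted p = 0.999). The next genes by p were Psmc4, an ATPase (-0.13 ± 0.07), and Psme3ip1, a partner of the nuclear activator Psme3 (-0.14 ± 0.08). Psmc4 was 11.31 and 11.25 untreated, 11.37, 11.31 and 11.38 in the first run and 11.13 and 11.15 in the second. Psme3ip1 was 10.15 and 10.16 untreated, 9.86, 9.89 and 10 in the first run and 9.92 and 10.03 in the second, so that it was lower in all 5 IL-12 arrays. Neither passed the test.

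Between IL-12 8 h and untreated 2 h none of the 50 members was called either, where 3.16% of all genes were called and 1.04% were called higher. The untreated arrays serve in both comparisons. At an unadjusted p under 0.05, 9 members were higher and none lower, and 37 of 50 changes were above 0, with a median of 0.08 against -0.01 over all genes. Among all 19752 genes 1394 were higher and 1477 lower at that unadjusted threshold, and 9314 changes were above 0. Psmd3, a lid subunit, had the smallest p, with 0.27 ± 0.08 (SE, limma adjusted p = 0.089). Tested among the genes above the median level only, 1 member was called, and none in the fit of all genes. The 3 next by p beside the catalytic subunits were Psma5 (0.24 ± 0.08), Psmg4 (0.26 ± 0.10), an assembly chaperone, and Psmd5 (0.23 ± 0.09), a chaperone of the base. The immunoproteasome genes ran from 0.02 for Psme1 to 0.25 for Psmb10.

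Psmg4 was 9.80 and 9.82 untreated and 9.85 and 9.76 in IL-12 2 h arrays 5 and 6, against 10.22 and 10.10 in IL-12 8 h arrays 5 and 6. In the first run it was 9.88, 9.91 and 10 at 2 h and 9.89 and 10.01 at 8 h. In the fit of 6 means of group and run it was called against the untreated arrays (0.35 ± 0.08, limma adjusted p = 0.0322), where 4.26% of all genes were called; the untreated arrays are all of the second run. The difference of its time change between runs was -0.33 ± 0.11 (limma adjusted p = 0.196) and was not called.

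Between 2 h and 8 h of IL-12, 11 of the 50 members were called higher at 8 h, none was called lower and 39 were not called, where 12.6% of all genes were called and 6.27% were called higher. Above 0 were 45 of 50 changes, with a median of 0.13 against -0.01 over all genes. Of the 6 ATPases of the base 5 were called, and of the 5 immunoproteasome genes 1, Psmb10. The called changes were small, from 0.17 for Psmc4 to 0.45 for Psmc2, which is 1.12-fold to 1.36-fold. The median change was 0.11 for the immunoproteasome genes and 0.14 for the other members, a description without a test. The mean of 6 T cell markers moved with the time as well, from 11.96 to 12.07 over the 2 h arrays and from 12.17 to 12.22 over the 8 h arrays with no overlap, and 2 of the 6 were called higher at 8 h. Its part in the change of the members was not tested.

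Psmd3, part of the lid that holds the deubiquitinase, was 10.85, 10.92 and 10.88 at 2 h and 11.07 and 11.19 at 8 h in the first run. In the second run it was 10.39 and 10.29 at 2 h and 10.64 and 10.74 at 8 h. Within each run all 8 h values were above all 2 h values, while over both runs the groups overlapped. The fitted change was 0.30 ± 0.06 (SE, limma adjusted p = 0.00338), with 0.25 in the first run and 0.35 in the second, both called.

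The ATPases unfold the substrate and thread it into the barrel. Psmc1 was 10.87, 10.74 and 10.78 at 2 h and 11.07 and 11.22 at 8 h in the first run, and 10.58 and 10.80 at 2 h and 10.96 and 10.94 at 8 h in the second. All 4 values at 8 h were above all 5 at 2 h, and the change was 0.31 ± 0.07 (SE, limma adjusted p = 0.00793). Psmc2 was 10.16, 9.92 and 10.09 at 2 h and 10.25 and 10.57 at 8 h in the first run, and 9.16 and 9.52 at 2 h and 9.74 and 10.07 at 8 h in the second. It was higher at 8 h within each run, by 0.45 ± 0.11 in the fit (limma adjusted p = 0.0164), and the runs stood further apart than the times.
Psmc3 was 10.09, 9.87 and 10.04 at 2 h and 10.20 and 10.30 at 8 h in the first run, and 9.52 and 9.61 at 2 h and 9.86 and 9.85 at 8 h in the second. Its change was 0.27 ± 0.06 (limma adjusted p = 0.0111), again with no overlap within a run. Psmc5 (0.30 ± 0.09, adjusted p = 0.0429) and Psmc4 (0.17 ± 0.05, adjusted p = 0.0408) were called too. Psmc4 was 11.50 and 11.53 at 8 h in the first run and 11.34 and 11.31 in the second, above the 2 h values of the same run given earlier. Psmc6 was the ATPase that was not called, at -0.01 ± 0.16. It was 10.99, 10.97 and 10.96 at 2 h and 11.21 and 11.17 at 8 h in the first run, and 10.63 and 11.46 at 2 h and 10.82 and 10.70 at 8 h in the second. The times did not overlap in the first run and overlapped in the second, and the difference between runs was 0.51 ± 0.29 (limma adjusted p = 0.499).

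The remaining calls were spread over other roles. Psmd4, a ubiquitin receptor of the base, rose by 0.22 ± 0.07 (limma adjusted p = 0.0415). Psmd6 of the lid rose by 0.31 ± 0.09 (adjusted p = 0.0483), and Psmd5, a chaperone of base assembly, by 0.23 ± 0.07 (adjusted p = 0.0342). Psmd5 was 10.43, 10.35 and 10.34 at 2 h and 10.49 and 10.73 at 8 h in the first run, and 10.18 and 10.20 at 2 h, 10.52 and 10.30 at 8 h and 10.14 and 10.23 untreated in the second, with no overlap of the times within a run. Among 7 alpha subunits none was called, although all 7 changes were above 0 (0.09 to 0.20). The 4 structural beta subunits ran from -0.04 to 0.24, without a call. Psmb1 was 10.78 and 10.98 at 8 h in the first run and 10.66 and 10.67 in the second, and Psma3 was 11.83 and 11.85, then 12.03 and 11.78. Psme3ip1, at 9.96 and 9.91, then 10.19 and 10.07, changed by 0.09 and was not called.

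Among the cutting subunits the calls fell on Psmb6 and Psmb10, which do not occupy the same site. Psmb6, the constitutive partner of Psmb9, was 11.24, 11.03 and 11.25 at 2 h and 11.26 and 11.44 at 8 h in the first run, and 10.46 and 10.49 at 2 h and 10.76 and 10.91 at 8 h in the second. Its change was 0.26 ± 0.07 (limma adjusted p = 0.0262). Psmb10, the immune partner of Psmb7, was 11.29, 11.45 and 11.26 at 2 h and 11.51 and 11.51 at 8 h in the first run, and 10.80 and 10.58 at 2 h and 10.99 and 11.03 at 8 h in the second. Its change was 0.24 ± 0.07 (limma adjusted p = 0.0473). Both were higher at 8 h within each run without overlap.

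The other immunoproteasome genes changed by 0.08 to 0.13 and were not called. Psmb8, the immune partner of Psmb5, was 11.37, 11.22 and 11.34 at 2 h and 11.38 and 11.42 at 8 h in the first run, and 10.85 and 10.81 at 2 h and 11.04 and 11.00 at 8 h in the second (0.13 ± 0.05, limma adjusted p = 0.148). Psmb9 was 11.71, 11.66 and 11.80 at 2 h and 11.68 and 11.79 at 8 h in the first run, and 10.88 and 11.01 at 2 h and 11.19 and 11.05 at 8 h in the second (0.08 ± 0.06, limma adjusted p = 0.473). Psmb8 did not overlap between times within a run, and Psmb9 overlapped in the first run only.
Of the PA28 pair, Psme1 was 11.75, 11.77 and 11.73 at 2 h and 11.79 and 11.83 at 8 h in the first run, and 11.56 and 11.62 at 2 h and 11.75 and 11.80 at 8 h in the second (0.11 ± 0.05, limma adjusted p = 0.214). Psme2 was 12.53, 12.48 and 12.62 at 2 h and 12.51 and 12.62 at 8 h, then 12.35 and 12.35 at 2 h and 12.49 and 12.48 at 8 h in the second run (0.08 ± 0.06, limma adjusted p = 0.467). Both had their larger difference in the second run.
The constitutive Psmb5 was 12.77, 12.79 and 12.84 at 2 h and 12.81 and 12.69 at 8 h in the first run, and 12.98 and 12.83 at 2 h and 12.91 and 12.73 at 8 h in the second, with a change of -0.06 ± 0.07. Psmb7 was 11.24, 11.08 and 11.28 at 2 h and 11.30 and 11.22 at 8 h, then 11.05 and 11.00 at 2 h and 11.16 and 10.97 at 8 h, with a change of 0.05 ± 0.07. For both, the times overlapped in each run.

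**Figure D1:**
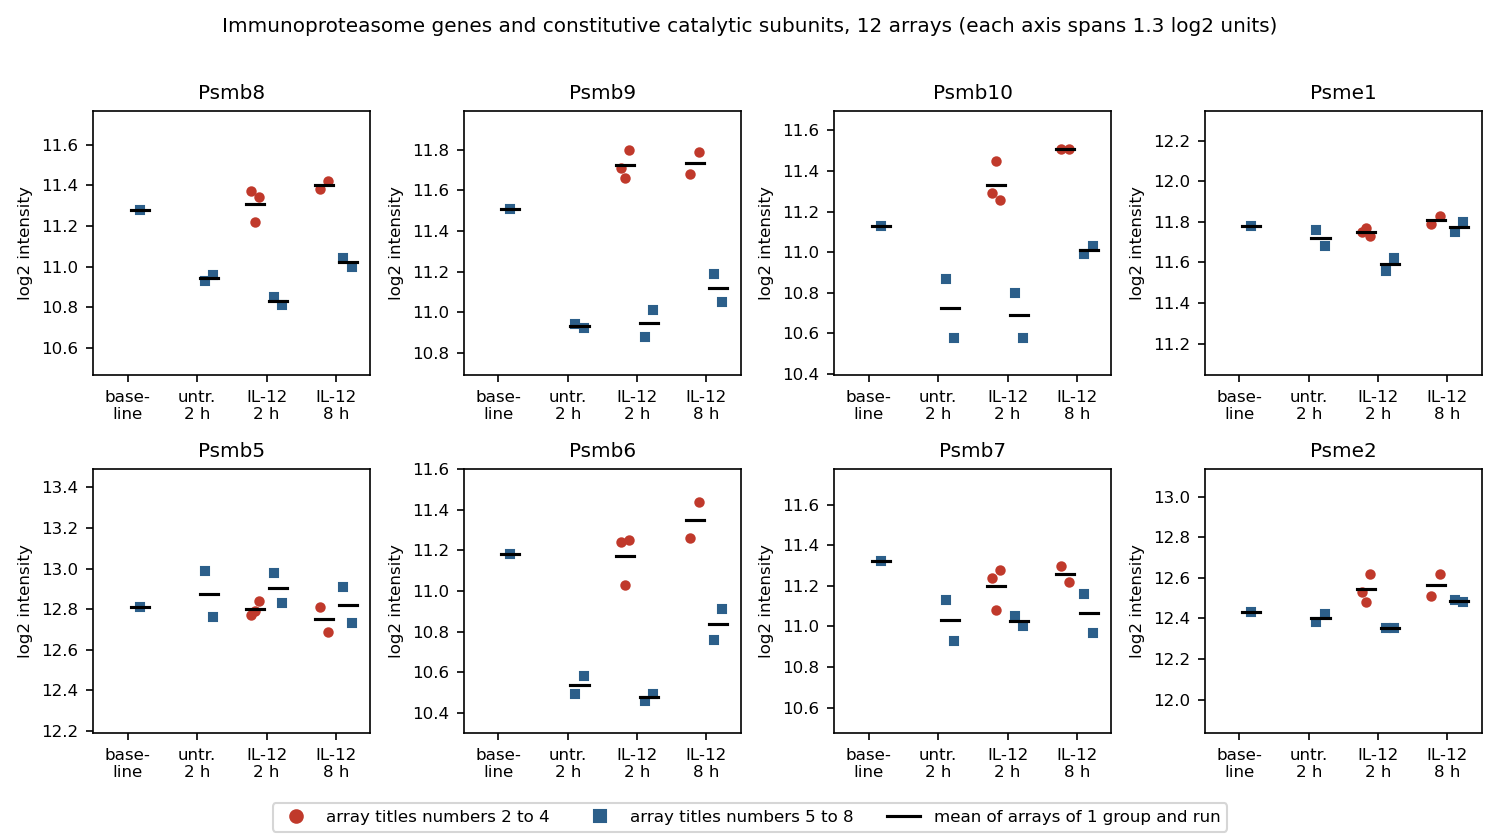
Log2 intensity of the 5 immunoproteasome genes and the 3 constitutive catalytic subunits on the 12 arrays, by group; circles are arrays with title numbers 2 to 4, squares those with 5 to 8, bars their means. Psmb8, Psmb9, Psmb10 and Psmb6 separate by number run at each IL-12 time, whereas Psmb5 overlaps between all groups and runs.

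The count of 11 depended on single arrays. It was 7 without IL-12 2 h array 2, 5 without array 3, 6 without array 4, 5 without array 5 and 6 without array 6. It was 2 without IL-12 8 h array 3, 6 without array 5 and 5 without array 6. Psmc1 and Psmd3 were the 2 members called whichever array was left out. With the title number as a block in place of the run, 2 members were called. With no run term there was 0, where the count at an unadjusted p under 0.05 was 6. Each call made with an array left out or with the block was in the higher direction.

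The direction at 8 h was shared more widely than the calls. The fit of 6 means of group and run gives the change within each run, and the 2 runs share no array. In it 37 of 50 members (74%) changed above 0 in both runs, against 27.1% of all genes, and 3 changed below 0 in both. All 5 immunoproteasome genes were above 0 in both runs. The sizes matched little, with Pearson's r of 0.27 across the 50 members (a description; the members share arrays). In the 6-mean fit 2 members were called in the first run (11.7% of all genes) and 3 in the second (5.61%), and Psmd3 was called in both.

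The change from 2 h to 8 h was not called different between the runs for any of the 50 members, where 1.79% of all genes were called, and 2 members passed an unadjusted p under 0.05. Of all 19752 genes 1457 had a positive and 1226 a negative difference at that unadjusted threshold. Psmd7, the partner of the lid deubiquitinase Psmd14, was 11.25, 11.07 and 11.22 at 2 h and 10.98 and 11.09 at 8 h in the first run, and 10.47 and 10.59 at 2 h and 10.77 and 10.75 at 8 h in the second. It thus moved in opposite directions, by a difference of -0.38 ± 0.12 (SE, limma adjusted p = 0.152). Psme4, a nuclear activator, was 10.22, 10.08 and 10.16 at 2 h and 10.45 and 10.47 at 8 h in the first run, and 10.02 and 10.27 at 2 h and 10.13 and 10.18 at 8 h in the second (difference 0.30 ± 0.14, limma adjusted p = 0.385). Psma2, an alpha subunit, was 11.05, 10.83 and 11.02 at 2 h and 11.25 and 11.46 at 8 h, then 10.96 and 11.42 at 2 h and 11.25 and 11.09 at 8 h (difference 0.40 ± 0.22, limma adjusted p = 0.481). Both were higher at 8 h without overlap in the first run and overlapped in the second. In simulated data this test of the difference between runs called 23% of genes changed by 0.5.

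**Figure D2:**
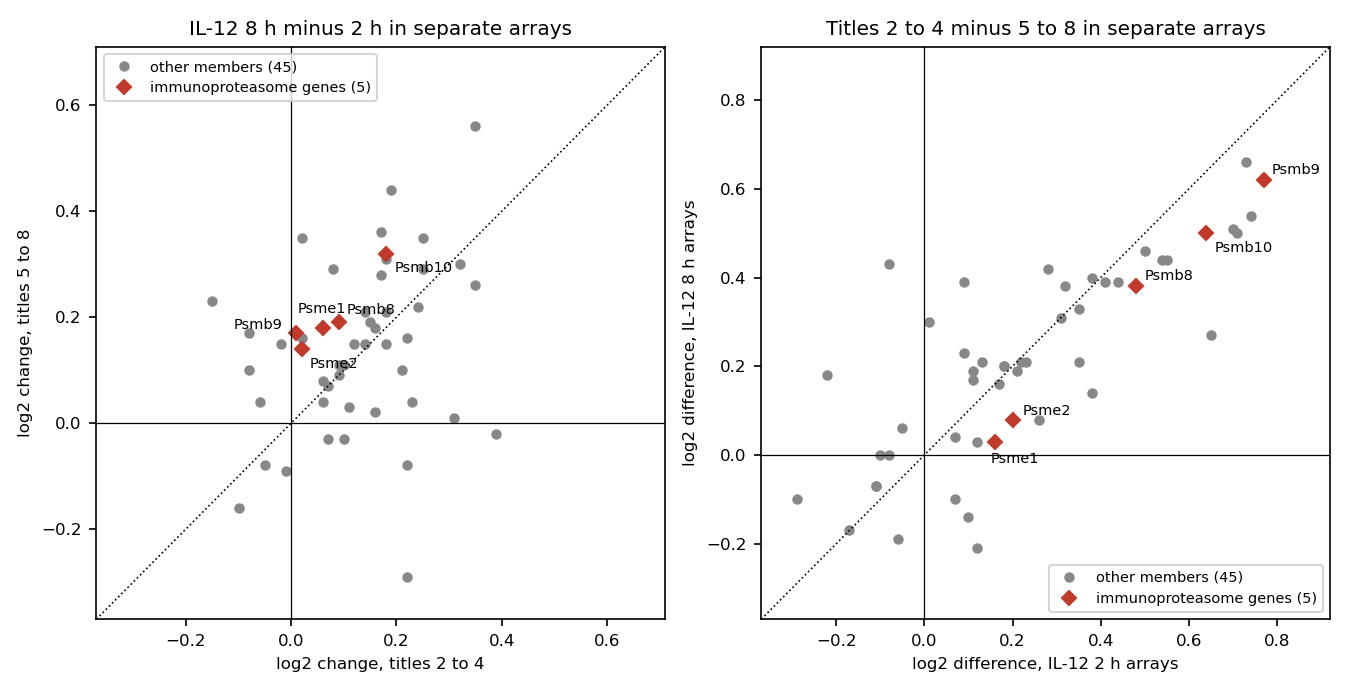
Left, log2 change from IL-12 2 h to 8 h in arrays with title numbers 2 to 4 (x) and 5 to 8 (y); right, log2 difference between the number runs at IL-12 2 h (x) and 8 h (y), 1 point per gene, 5 immunoproteasome genes as diamonds, dotted line of equality. In each panel 37 of 50 genes lie above 0 on both axes, and sizes match more closely in the right panel (r = 0.78) than in the left (r = 0.27).

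More members were called by number run than in any other comparison made here. Precision differed between the comparisons, with a median SE over all genes of 0.069 by run and of 0.125 for untreated against baseline, where the median difference of the members was -0.22. Of the 50 members 25 were called higher in the first run and 2 lower, where 24.3% of all genes were called, 11.8% higher and 12.5% lower. The median difference was 0.19 over the members and 0.04 over all genes. The 3 cutting subunits of the immunoproteasome were all called, at 0.43 to 0.70, while the PA28 pair was not (0.10 and 0.14). The median difference of the 5 immunoproteasome genes (0.43) exceeded that of the other members (0.19) by 0.25, a description without a test.

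Psmb9 was the immune subunit furthest apart. The 5 values of the first run lay between 11.66 and 11.80, and the 6 values of the second run outside baseline between 10.88 and 11.19. The difference was 0.70 ± 0.06 (SE, limma adjusted p = 5.28e-06), which is 1.63-fold, with 0.77 at 2 h and 0.62 at 8 h. Psmb10 differed by 0.58 ± 0.07 (limma adjusted p = 9.63e-05) and Psmb8 by 0.43 ± 0.05 (adjusted p = 7.94e-05), each with no overlap between runs outside the baseline array. The untreated arrays, both of the second run, were 10.93 and 10.96 for Psmb8, 10.94 and 10.92 for Psmb9, and 10.87 and 10.58 for Psmb10.
For the PA28 pair the untreated arrays were 11.76 and 11.68 for Psme1 and 12.38 and 12.42 for Psme2. Psme1 differed between runs by 0.10 ± 0.05 (limma adjusted p = 0.18) and Psme2 by 0.14 ± 0.06 (adjusted p = 0.0784). Another probe set that the platform assigns to both Psme2b and Psme2, and which was therefore left out, gave 0.22 ± 0.05.

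The constitutive cutting subunits did not move together. Psmb6 differed by 0.62 ± 0.07 (limma adjusted p = 4.01e-05), close to its immune partner Psmb9, and its untreated values were 10.49 and 10.58. Psmb7 differed by 0.19 ± 0.07 (adjusted p = 0.0572) and Psmb5 by -0.09 ± 0.07 (adjusted p = 0.344), with untreated values of 11.13 and 10.93 and of 12.99 and 12.76. Mean levels were 12.82 for Psmb5, 11.14 for Psmb7 and 10.92 for Psmb6. Across the 46 members in the proteasome roles brighter genes had smaller run differences (Spearman's rho -0.38, all 50 members -0.21, all genes -0.12). For the change from 2 h to 8 h rho was -0.38 (all 50 members -0.20, all genes 0.12). Pearson's r was weaker, at -0.31 by run and -0.18 by time over the 46, and at -0.05 and 0.02 over all 50. The part of the level in these differences was not tested. Psmb5 and Psmb6, 2 of the 5 members with an antioxidant response element core in the window, had different values on this axis. The part of the element in the run difference was not tested.

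The alpha subunit Psma5 gave a difference as large as that of Psmb9. It was 10.48, 10.28 and 10.37 at 2 h and 10.51 and 10.51 at 8 h in the first run, and 9.57 and 9.71 at 2 h, 9.87 and 9.83 at 8 h and 9.52 and 9.65 untreated in the second. The runs did not overlap, and the difference was 0.70 ± 0.06 (SE, limma adjusted p = 4.3e-06); a second Psma5 probe set gave 0.86 ± 0.08. Psma7 was 10.67, 10.43 and 10.63 at 2 h and 10.61 and 10.70 at 8 h in the first run, and 9.74 and 9.92 at 2 h, 10.16 and 10.07 at 8 h and 9.98 and 9.89 untreated in the second, differing by 0.65 ± 0.07 (limma adjusted p = 2.67e-05). Of the 7 alpha subunits 4 were called, with Psma1 (0.34) and Psma4 (0.31). Psma3, Psma2 and Psma6 were not, at -0.09, -0.04 and 0.06. Subunits of 1 ring thus had unlike values.

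In the cap, 7 of 8 lid subunits and 4 of 6 ATPases were called higher in the first run. Psmd3 differed by 0.49 ± 0.06 (limma adjusted p = 3.97e-05), with untreated values of 10.43 and 10.36. Psmd4 was 9.81, 9.68 and 9.75 at 2 h and 9.86 and 9.98 at 8 h in the first run, and 9.15 and 9.24 at 2 h, 9.39 and 9.57 at 8 h and 9.17 and 9.36 untreated in the second. It differed by 0.50 ± 0.07 (limma adjusted p = 0.00011), without overlap. The lid deubiquitinase Psmd14 differed by 0.40 and its partner Psmd7 by 0.48. Further calls in the cap were Psmc2 (0.62), Psmc3 (0.42), Psmd6 (0.39), Psmd12 (0.34), Psmc5 (0.27), Psmd11 and Psmd13 (0.22 each), Psmc4 (0.20) and Psmd5 (0.19). The lid subunit that was not called was Psmd8 (0.08). The 2 calls in the lower direction were Psmd1, a large scaffold of the base, at -0.20 ± 0.07 (limma adjusted p = 0.0429), and Psme3, a nuclear relative of PA28, at -0.17 ± 0.05 (adjusted p = 0.0284).

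Among the structural beta subunits Psmb4 (0.49), Psmb1 (0.29) and Psmb2 (0.17) were called, and Psmb3 (-0.04) was not. Of the 4 chaperones that build the barrel only Psmg1 was called (0.35 ± 0.08, limma adjusted p = 0.00481). Psmg2 gave 0.16, Psmg3 0.18 and Psmg4 -0.03. The base chaperones Psmd9 (0.14) and Psmd10 (0.15) and the inhibitor Psmf1 (-0.01) were not called.
At 8 h against 2 h none of Psmg1 (0.19), Psmg2 (0.10), Psmg3 (0.00), Psmg4 (0.17), Psme3 (0.07), Psme4 (0.18), Psmf1 (0.06), Psmd9 (-0.13) or Psmd10 (0.04) was called. The restricted subunits Psma8 and Psmb11 ranged from 5.26 to 5.83 and from 6.22 to 6.62 over the 12 arrays and changed by at most 0.05 in size in either comparison. Psmc3ip, a meiotic recombination factor, gave 0.23 ± 0.09 by run (limma adjusted p = 0.0835) and 0.08 by time.

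**Figure D3:**
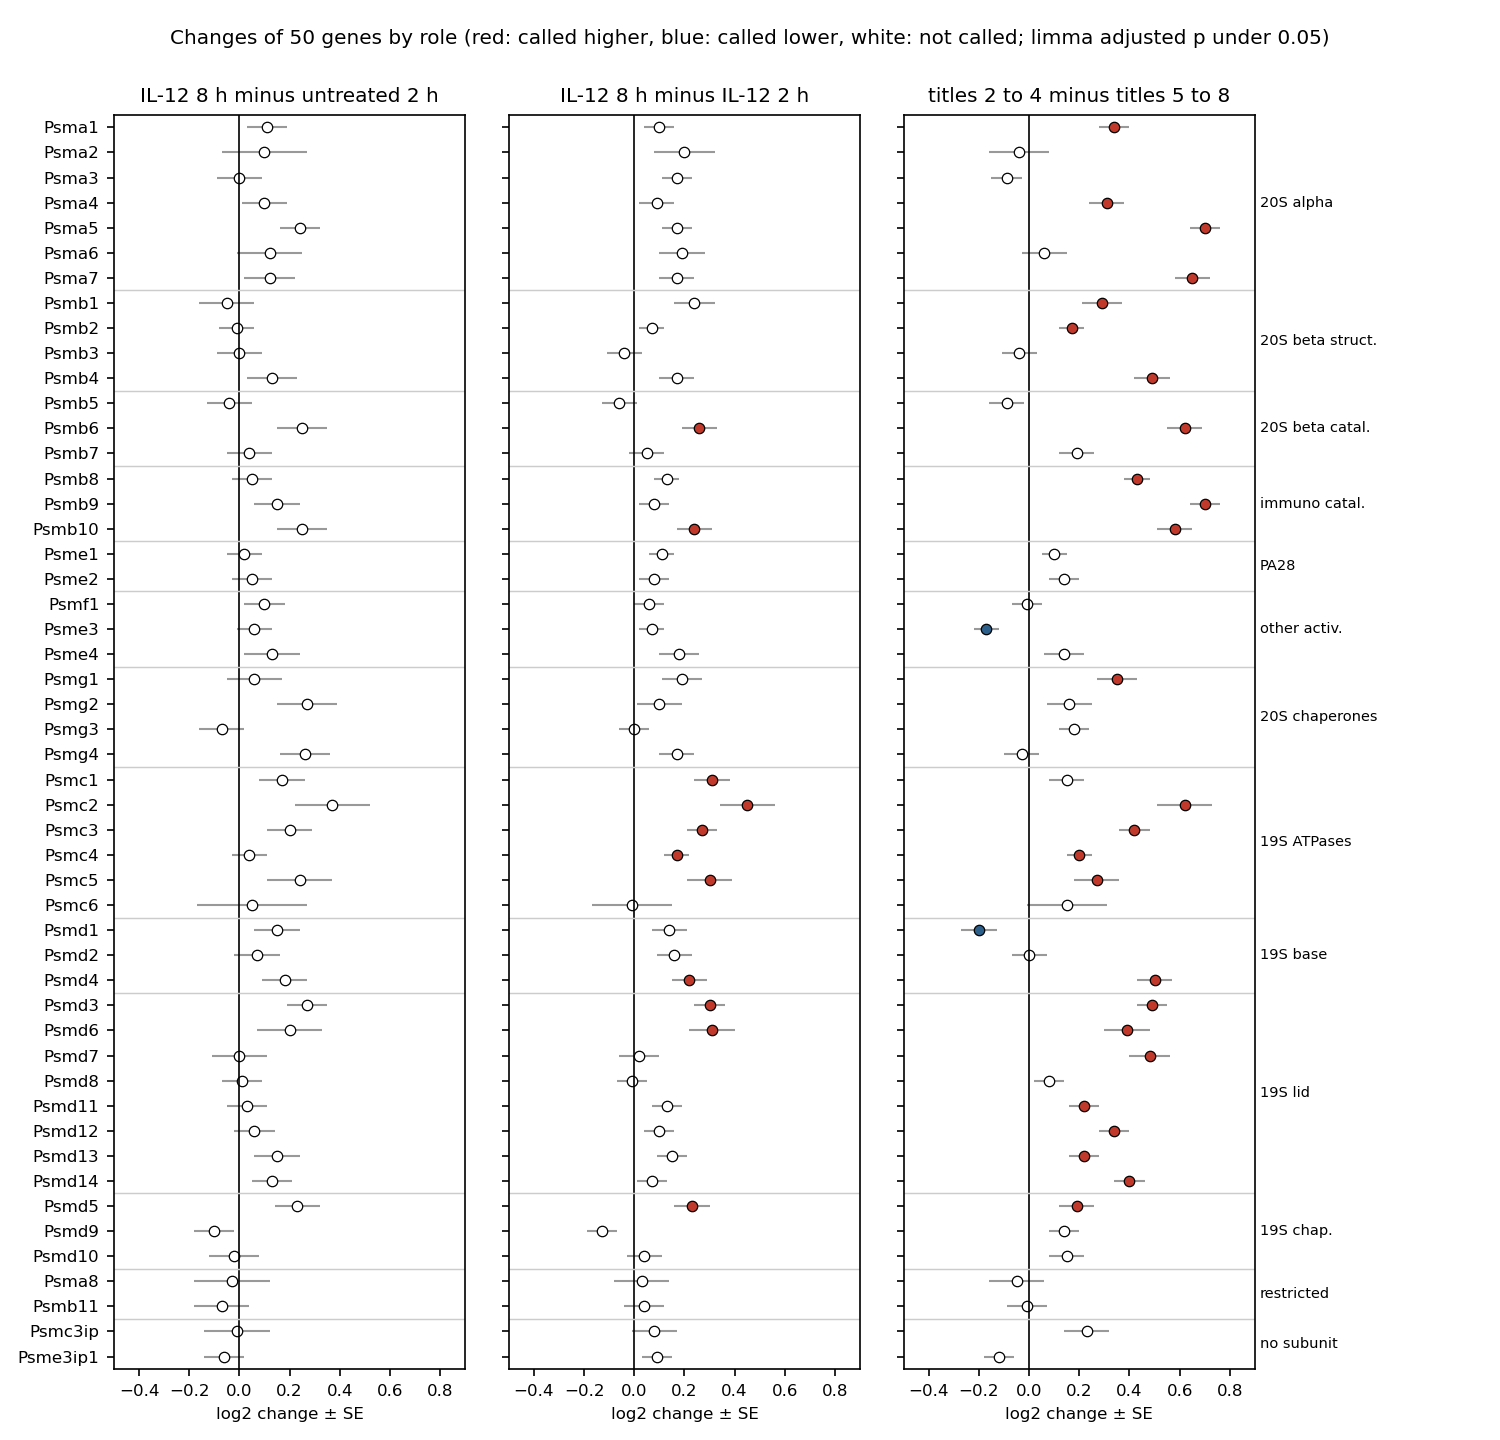
Log2 change with its SE for the 50 genes, ordered by role, in IL-12 8 h minus untreated 2 h (left), IL-12 8 h minus 2 h (middle) and arrays titled 2 to 4 minus 5 to 8 (right); filled points are called by limma. No gene is called on the left, 11 are called higher in the middle, and 25 are called higher and 2 lower on the right.

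The run difference held at both times. Above 0 at both 2 h and 8 h were 37 of 50 members (74%), against 42.3% of all genes, with Pearson's r of 0.78 across the members and 0.61 across all genes, as a description. Other markers moved with the run. The mean of the 13 macrophage markers was 6.26 to 6.39 in the first run and 6.54 to 6.76 in the second outside baseline (6.43), with 1 marker called higher and 5 lower in the first run. The 2 CD8 T cell markers averaged 7.76 to 7.91 in the first run and 8.07 to 8.39 in the second, with 1 called lower in the first run. NK cell markers ran from 4.63 to 4.88 against 4.98 to 5.25, B cell markers from 7.43 to 7.60 against 7.11 to 7.26, and the 3 erythroid and platelet markers from 7.44 to 8.13 against 6.67 to 7.23. Their part in the run difference was not tested. With the macrophage mean as a covariate, which itself separates the runs, 0 members were called by run, against 27, and 11 were higher at an unadjusted p under 0.05 with the median difference at 0.19.

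**Figure D4:**
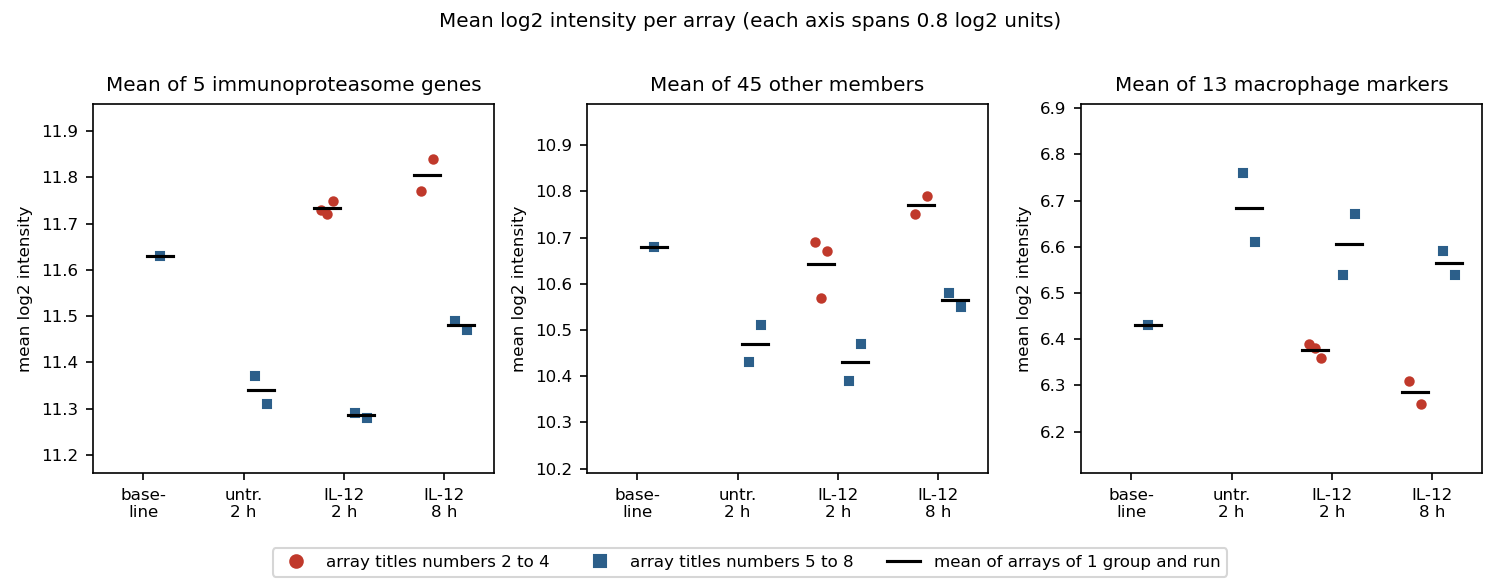
Mean log2 intensity per array of the 5 immunoproteasome genes, the other 45 members and 13 macrophage markers, by group; circles are title numbers 2 to 4, squares 5 to 8. The immunoproteasome mean is 11.72 to 11.84 on circles and 11.28 to 11.49 on squares outside baseline (11.63), the mean of the others 10.57 to 10.79 against 10.39 to 10.58 (baseline 10.68), and the macrophage mean is lower on circles.

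The untreated cells were lower than baseline for 12 of 50 members and higher for none, where 10.2% of all genes were called and 3.96% were called lower. Markers of other cells moved in the same comparison. The mean of the 3 erythroid and platelet markers was 8.58 at baseline and 6.77 and 7.19 untreated, and that of the 6 B cell markers was 7.73 against 7.12 and 7.18. The baseline array was the highest of all 12 for both lists, and their part in the difference was not tested. This comparison rests on 1 baseline array, and its spread comes from the other groups. Psma7 was 10.72 at baseline and 9.98 and 9.89 untreated (-0.78 ± 0.13, limma adjusted p = 0.00156), and Psma5 was 10.27 against 9.52 and 9.65 (-0.69 ± 0.11, adjusted p = 0.00122). Psmg1 was 10.36 against 9.64 and 9.66 (-0.71 ± 0.14, adjusted p = 0.00487), and Psmd12 of the lid was 11.11 against 10.61 and 10.77 (-0.42 ± 0.11, adjusted p = 0.0247). In each of these genes the baseline value was above both untreated values. Psmg1 was 10, 9.64 and 9.92 at 2 h of IL-12 and 9.96 and 10.19 at 8 h in the first run, and 9.49 and 9.58, then 9.68 and 9.71 in the second. Psmd12 was 11.03, 10.96 and 11.01, then 11.04 and 11.14 in the first run, and 10.55 and 10.75, then 10.73 and 10.78 in the second. The baseline value of Psmg1 was above all 9 IL-12 values, and that of Psmd12 above 8 of them.
Psmb9 was 11.51 at baseline (-0.58 ± 0.11, limma adjusted p = 0.00455), Psmb8 was 11.28 (-0.34 ± 0.10, adjusted p = 0.0441) and Psmb6 was 11.18 (-0.65 ± 0.13, adjusted p = 0.00509). Psmb10, at 11.13, was not called (-0.41 ± 0.14, adjusted p = 0.0755). Psme1 (11.78), Psme2 (12.43), Psmb5 (12.81) and Psmb7 (11.32) were not called, with changes of -0.07, -0.03, 0.07 and -0.29. The other calls were Psmd14 (-0.42), Psmc3 (-0.41), Psmd3 (-0.36), Psma3 (-0.40) and Psmb4 (-0.43). Psma3 stood highest at baseline, at 12.32, above all other arrays. Baseline values of the ATPases were 10.98 for Psmc1, 9.85 for Psmc2, 10.05 for Psmc3 and 11.35 for Psmc4, against untreated values of 10.70 and 10.90 for Psmc1, 9.28 and 9.68 for Psmc2 and 9.57 and 9.71 for Psmc3. Each was above both untreated arrays, and Psmc3 alone was called. In the cap, baseline was 10.75 for Psmd3, 9.52 for Psmd4, 10.51 for Psmd5 and 10.90 for Psmd7, whose untreated values were 10.65 and 10.67. Among the others it was 10.61 for Psmb1, 10.98 for Psma2 (untreated 10.93 and 11.43), 9.95 for Psmg4, 10.48 for Psme4 (untreated 9.98 and 10.23) and 9.94 for Psme3ip1, none of them called.

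The baseline array is titled number 5, so the fit placed it in the second run, but its values lay closer to the first. For 37 of 50 members it was nearer to the mean of the first run than to that of the second, and for 22 of the 27 members called by run. The first run holds IL-12 arrays only, whereas the mean of the second included the untreated arrays. The same count over all genes was not made. Its median correlation over all genes was 0.993 with the arrays of the first run and 0.989 with those of the second, untreated arrays included. When the array was given the run of numbers 2 to 4, none of the 12 calls was left, and at an unadjusted p under 0.05 1 member was higher and 2 were lower. The count was 7 without untreated array 7. Baseline and number run therefore cannot be told apart with this 1 array.

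Genes that work with the proteasome moved on the same axes only in part. Of 32 listed partners 22 were measured. At 8 h against 2 h of IL-12, 3 of 22 were called higher and none lower (all genes 6.27% higher): Vcp, the unfoldase that extracts ubiquitinated proteins (0.35 ± 0.07, limma adjusted p = 0.00444), Ngly1, an N-glycanase (0.28 ± 0.07, adjusted p = 0.0144), and Pomp, which matures the barrel (0.23 ± 0.06, adjusted p = 0.0212). Ngly1 was also the partner called at 8 h against untreated (0.44 ± 0.09, adjusted p = 0.0199). By run 6 of 22 were called higher and 3 lower (all genes 11.8% higher and 12.5% lower), with Pomp at 0.38 ± 0.06 (adjusted p = 0.000359) and Uchl5, a deubiquitinase of the cap, at 0.55 ± 0.10 (adjusted p = 0.00132). Nfe2l1, a transcription factor known to induce proteasome genes, was lower in the first run, at -0.55 ± 0.07 (adjusted p = 6.48e-05). Against baseline the 3 smallest p were those of Nfe2l1 (0.62), Uchl5 (-0.73) and Uba6 (0.47), an enzyme that activates ubiquitin.

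Of the 15 listed genes of MHC class I presentation 11 were measured, and 3 were called higher at 8 h than at 2 h (all genes 6.27%). These were Calr, a chaperone of class I folding (0.28 ± 0.05, limma adjusted p = 0.00362), Erap1, which trims peptides (0.25 ± 0.07, adjusted p = 0.0308), and Tapbp, which bridges class I to the peptide transporter (0.24 ± 0.07, adjusted p = 0.0352). By run 1 of 11 was called, Tap2, where 24.3% of all genes were called. The median of the 11 was 0.00 by time and -0.03 by run.
Tap1 and Tap2 encode the peptide transporter and lie beside Psmb9 and Psmb8 in the MHC region. The upstream stretches of Psmb9 and Tap1 share 225 bases, read on opposite strands. Tap1 was 11.80, 11.81 and 11.76 at 2 h and 11.66 and 11.67 at 8 h in the first run, and 11.77 and 11.71 at 2 h, 11.76 and 11.85 at 8 h and 11.68 and 11.68 untreated in the second. It differed between runs by -0.04 ± 0.06 (limma adjusted p = 0.678) while Psmb9 differed by 0.70. Tap2 differed by 0.28 ± 0.06 (limma adjusted p = 0.00608) beside 0.43 for Psmb8. The pair of Psmb9 and Tap1 was chosen after its values were seen, and the difference between the genes was not tested.

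**Figure D5:**
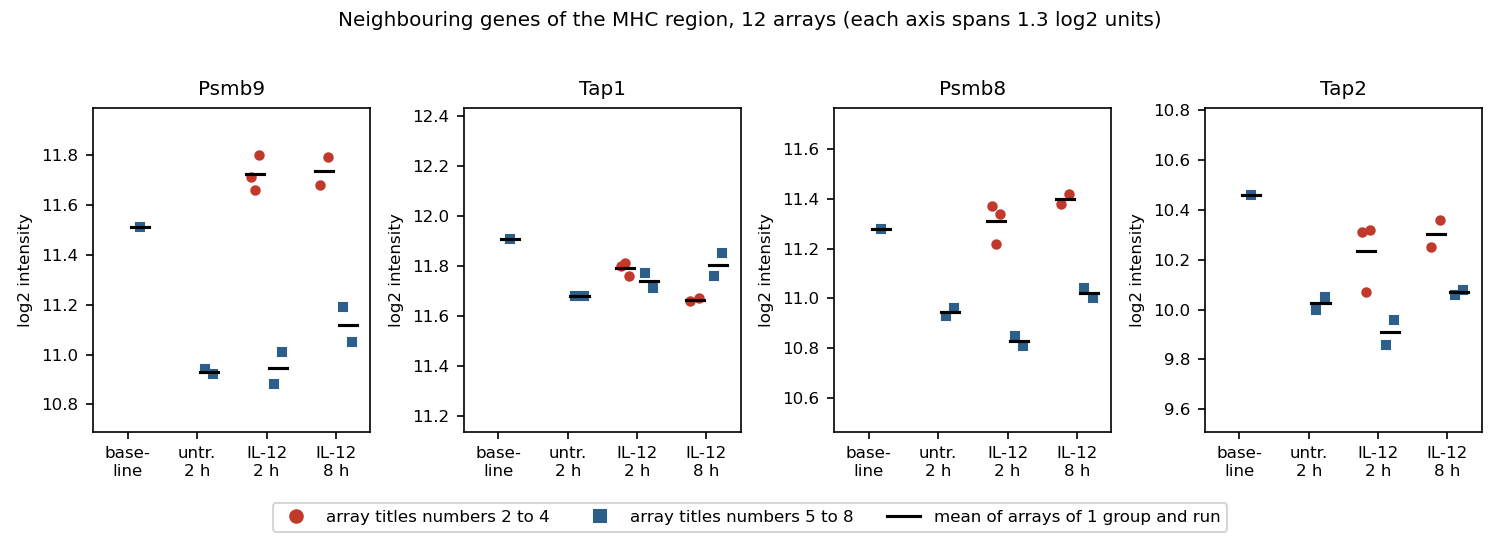
Log2 intensity of Psmb9, Tap1, Psmb8 and Tap2 on the 12 arrays by group, with circles for title numbers 2 to 4, squares for 5 to 8 and bars for their means. Psmb9 separates by run (difference 0.70), Tap1 does not (-0.04), and Psmb8 (0.43) and Tap2 (0.28) lie in between.

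Interferon-gamma genes did not follow the members in time. Of the 11 listed 10 were measured, and at 8 h against 2 h none was called higher and 6 lower (all genes 6.36% lower). Irf8 fell by 0.92 (SE 0.07, limma adjusted p = 9.59e-07), Jak2 fell by 0.59 and Ifngr2 fell by 0.49; Irf1, an activator of immunoproteasome genes, fell by 0.35 (SE 0.06, adjusted p = 0.00276). Ifng fell by 0.55 (SE 0.14, adjusted p = 0.0227), from 11.90, 12.04 and 12 to 10.94 and 11.07 in the first run, and in the second run it was 11.25 and 11.20 at 2 h and 11.28 and 11.12 at 8 h, so that the fall was in the first run. Against untreated cells (9.69 and 9.40) it was higher at 8 h by 1.39 ± 0.20 (adjusted p = 0.00125). That fit takes the run difference to be the same at both times. Within the second run, the only one with untreated arrays, the rise was 1.65 at 8 h and 1.68 at 2 h. By run 2 of the 10 were called higher and 2 lower (all genes 11.8% and 12.5%). Irf1 (0.23 ± 0.06, adjusted p = 0.017) and Stat2 (0.30 ± 0.06, adjusted p = 0.00443) were higher in the first run, Ifngr2 (-0.48 ± 0.09, adjusted p = 0.00142) and Jak2 (-0.28 ± 0.09, adjusted p = 0.0279) were lower, and Ifng was not called (0.32 ± 0.14, adjusted p = 0.118). This value for Ifng averages unlike times. At 2 h the first run was higher by 0.75, and at 8 h its values were below those of the second run.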

How the data were processed

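RNA of activated CD4+ T cells was amplified with the Ambion WT Expression Kit and hybridised to 12 arrays, per the labels' protocols. The authors deposited 1 table of intensity values for 24922 probe sets, made with Affymetrix Power Tools and RMA per the submitters' processing notes, which give no version; the genome build is not given in the sources used here. Values were linear and their log2 was taken here, with no further normalization or floor, and RMA can compress differences of dim probe sets.

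The platform annotation gives 21425 probe sets 1 symbol, 1399 several and 2098 none, and the probe set of highest mean stood for each of 19752 genes. limma 3.58.1 in R 4.3.3 fitted 4 group means and the number run (7 residual degrees of freedom); a fit of 6 means tested the difference between runs. The test was checked on simulated data. No pair of arrays held identical values in the majority of its probe sets. Promoter sequences come from RefSeq. Figures used Python 3.11.15 and matplotlib 3.10.9.

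The members and lists were chosen with earlier results of these data known. Values in every sample are given for the immunoproteasome genes, Psmb5, Psmb6, Psmb7 and the 4 other members of smallest p in each comparison; other members are named where called or where they stand outside the particle, and 3 genes of smallest p per related list. Same-numbered IL-12 arrays deviated together from the group means (r of 0.30 to 0.52) but not from the means of group and run (-0.26 to 0.03), so the numbers were not taken as pairs. Within the second run the latter r is the same for each number by construction. The untreated arrays share no number with an IL-12 array, so this check did not cover them. Psma2 and Psmb3 differed between the untreated arrays much as between the time-matched IL-12 arrays of that run, whereas Psma3 did not. Whether these arrays form pairs was not tested, and the fits took no account of it.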

Additional observations from a re-analysis of the deposited data

Results flagged for a closer look

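Of 106 sets of 4 or 5 arrays examined, 2 held an array far from the others, where chance gives about 1 in 20. Psmb3, a structural beta subunit, was 13.39 in IL-12 2 h array 5 against 13.15 to 13.20 in the other 4. Psmd8, of the lid, was 11.53 in IL-12 2 h array 6 against 11.72 to 11.77 in the others. Each set held arrays of both number runs. Untreated arrays 7 and 8, of the same run as these 2 arrays, were 13.32 and 13.08 for Psmb3 and 11.71 and 11.55 for Psmd8. Each flagged value thus lay near that of 1 untreated array. Outside the proteasome, the change from 2 h to 8 h of IL-12 differed between the number runs (first minus second) for 4 interferon-gamma signalling genes by the interaction term of limma: Ifng by -0.95 ± 0.14 (SE, adjusted p = 0.00403), Ifngr1 by 0.60 ± 0.11 (adjusted p = 0.0174), Socs1 by -0.61 ± 0.12 (adjusted p = 0.0222) and Ifngr2 by -0.52 ± 0.11 (adjusted p = 0.0316).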

How the results depend on the processing

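The cause of the shifts below was not tested. The 11 members called at 8 h against 2 h of IL-12 became 0 with no run term, 0 on arrays 5 to 8 alone, 6 on arrays 2 to 4 alone (3 of them among the 11), 2 with the replicate block and 1 with the macrophage covariate, and 2 to 12 when 1 array was left out. The 12 called against baseline became 0 with no run term, 5 on arrays 5 to 8 alone, 0 with the baseline array given the first run, 1 with the macrophage covariate, and 7 to 13 when 1 array was left out. In that baseline setting 6 called genes changed sign: Psma5 (0.02), Psmb4 (0.06), Psmb8 (0.10), Psmb9 (0.12), Psmc3 (0.01) and Psmd3 (0.14). The 27 called by run became 0 with the macrophage covariate and 21 to 27 when 1 array was left out; 19 were called whichever array was left out. At 8 h against untreated, 1 was called among genes above the median level, and 0 when any array was left out, as for IL-12 2 h against untreated and the difference between runs. The median change of immunoproteasome genes minus that of the others was 0.02 for IL-12 2 h against untreated and -0.04 for 8 h, and 0.10 and 0.11 with no run term. When 1 array was left out it ran from -0.06 to 0.05 (2 h against untreated), -0.07 to 0.00 (8 h against untreated), -0.05 to 0.00 (8 h against 2 h), -0.17 to -0.01 (untreated against baseline), 0.21 to 0.29 (run) and -0.13 to -0.07 (difference between runs). The other alternatives, among them quantile normalization once more, the mean of all probe sets and an intensity trend, kept the counts within 1.5 times. Members near background, such as Psma8, can show little on these arrays.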
